A study of Arabidopsis thaliana with 6 samples.

Results

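Nuclear genes for the subunits of the photosynthetic light reactions were examined in heat-treated Arabidopsis seedlings. The set holds the nuclear subunits of photosystem II and photosystem I, the LHCB and LHCA antenna proteins, plastocyanin, leaf ferredoxin, ferredoxin-NADP reductase and PETC. Its members were chosen by their known function, with earlier results of these data known. They are 48 loci out of the 21894 genes that the array annotation names. They were read through 44 of 22746 probe sets. Of the 48 genes, 41 had a probe set shared with no other member, and the other 7 shared 3 probe sets, each counted once.

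The seedlings were Arabidopsis thaliana of the ecotype Col-0, with no other genotype named. Seeds of both groups spent 72 h at 4 °C in the dark, and the seedlings then grew on solid medium at 23 °C with 16 h of light of about 100 μmol per square metre and second. The heat group (3 arrays) was held at 37 °C for 30 min, and the control group (3 arrays) received no heat. Both groups were under light. Dark groups are named in the design text and were not analysed here. The design text gives an age of 10 days, whereas the sample labels give the heat arrays 13, 14 and 15 days and the control arrays 10, 11 and 12 days. The labels do not say whether the samples of a group were grown separately, so the p-values measure only the spread between these samples, which may be technical. In whole seedlings, fewer cells of a type and less RNA per cell cannot be told apart.

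Photosystem II uses light to take electrons from water, and the electrons pass through the cytochrome b6f complex and plastocyanin to photosystem I, which reduces ferredoxin. Ferredoxin-NADP reductase then makes the NADPH used in carbon fixation, and the LHCB and LHCA proteins bind the chlorophyll that feeds the photosystems. The plastid genome encodes most reaction-centre subunits, while the nucleus encodes the antenna, the lumenal proteins of the oxygen-evolving complex and many small subunits, whose transcripts are among the most abundant of green tissue. Heat is known to damage the oxygen-evolving complex in particular.

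After heat, 10 of the 44 probe sets fell, none rose and none changed as much as 2-fold. The 10 were PSBO1, PSBX and PSBTN of photosystem II, PSAE1, PSAF, PSAK, PSAL and PSAO of photosystem I, the antenna gene LHCB5 and PETC. Their levels after heat were 71.5% to 83.2% of those in control seedlings. Levels are log2 values as deposited, a change is the heat mean minus the control mean, and a call is an adjusted p under 0.05 from limma's moderated test, adjusted over all 22746 probe sets.

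The share of members that fell was 22.7%. Over all probe sets tested, 11.5% fell, 7.82% rose, 19.3% were called in either direction, and 6.78% were called with a change of at least 2-fold. The members' median change was -0.23, against 0.02 over all probe sets. The heat mean was below the control mean for 38 members and above it for 6, while 46.3% of all probe sets were below. All 3 heat arrays lay below all 3 control arrays for 27 members and above them for 1 member, LHCB2.3; over all probe sets these orders held for 20.0% and 18.8%. Without adjustment, 22 members had a limma p under 0.05, all of them lower after heat. No share of all probe sets was computed for this unadjusted limit, here or for the counts below. Each of the 44 changes had a 95% limma interval within 1 log2 unit of 0, which is 2-fold.

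Many of these calls were lost when 1 array was left out, which also leaves fewer arrays for the test. Of the 44, 1 fell without heat array 3, 2 without heat array 1, 3 without control array 2, 6 without control array 1 and 8 without either heat array 2 or control array 3. PSBO1 was the only member that fell in all 6 of these fits. Of all probe sets, 6.75% fell without heat array 3, 6.48% without heat array 1 and 8.3% without control array 2. The share was 10.8% without control array 1, 8.75% without heat array 2 and 12.3% without control array 3. The part of the smaller number of arrays in the lost calls was not tested. With the labelled age as a covariate, no member was called and 1 had an unadjusted p under 0.05, while the median change was -0.15. Over all probe sets, 0.998% fell in that fit. PSBO1 had a change of -0.48 with and without this covariate, with adjusted p of 0.262 and 0.0065. The changes of 7 members took the other sign. Labelled age did not overlap between the groups, so this fit separates age from heat only poorly. The part of age in the changes was not tested.

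**Figure D1:**
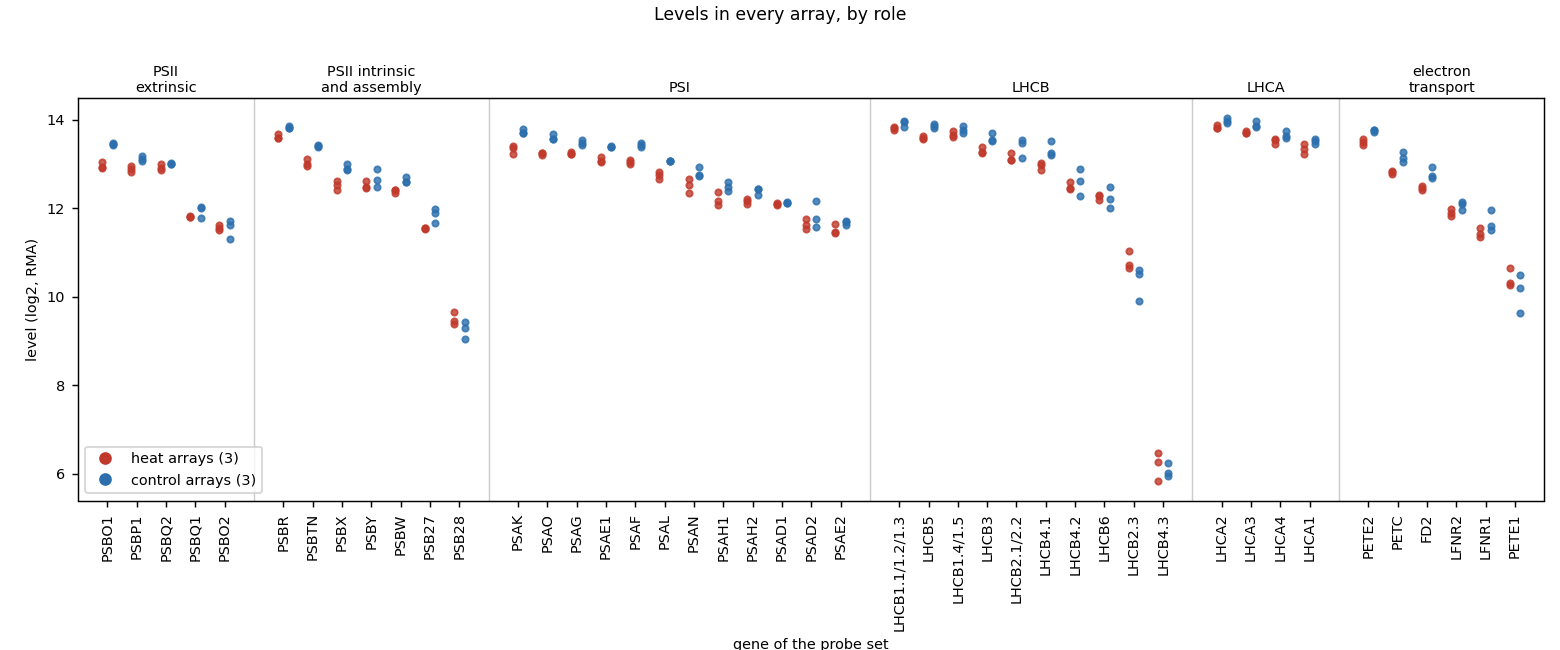
Log2 level of every member on each array, heat to the left of control, in panels by role. Each point is 1 array, and the 10 genes that fell after heat have all heat points below the control points.

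Some facts of the arrays bear on these values. Array medians were 4.39 to 4.43 for heat and 4.49 to 4.53 for control, and the members' median level was 12.72 to 12.82 on the heat arrays and 13.03 to 13.04 on the control arrays. The mean of 24 Bacillus control probe sets was 6.65 to 7.14 on heat arrays and 6.40 to 6.47 on control arrays. With arrays scaled to these controls, the median of all probe sets shifted to -0.49 and that of the members to -0.73. This scaling shifts all probe sets of an array equally, so the distance of 0.24 between these medians could not change. Under that scaling all 44 changes were below 0 and 38 members fell, beside 42.5% of all probe sets. Directions are stated on the deposited values, where the median change of all probe sets was 0.02. The 3′ minus 5′ signal of GAPDH, a measure of RNA degradation, was 1.33 to 1.69 for heat and 2.18 to 2.54 for control, and that of actin 4.41 to 4.65 for heat and 4.69 to 5.12 for control. That of ubiquitin was 1.79 to 1.98 for heat and 1.79 to 2.12 for control, so its groups overlapped. The part of these differences in the results was not tested.

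Some marker genes of the organs also differed between the groups. The summed linear level of 9 root genes was 1001 to 1320 on heat arrays and 2790 to 2970 on control arrays, a sum that rests mostly on PYK10. PYK10 and SCR fell (adjusted p 0.000589 and 0.000287) and the other 7 were not called. Of the 9 genes, 4 had a heat mean below and 5 above the control mean, with a median change of 0.03, and 5 lay under the array median. Of the shoot markers, 6 genes on 5 probe sets, none was called, and their summed level was 25003 to 26074 on heat arrays and 28398 to 29218 on control arrays. None of these genes was listed at 0. The Rubisco small subunit genes RBCS1A and RBCS3B, on 1 probe set, read 13.90, 13.99 and 14.01 after heat and 14.05, 14.06 and 14.11 in controls. How far organ composition entered the members' changes was not tested.

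In the oxygen-evolving complex, 1 of 5 members fell. PSBO1 (AT5G66570), which encodes the main form of the protein that stabilises the manganese cluster, had log2 levels of 12.90, 13.05 and 12.92 on the heat arrays and 13.44, 13.46 and 13.42 on the control arrays. The groups were separated by more than the whole spread within either. PSBO1 fell by 0.48 ± 0.08 (SE), to 71.5% of control (adjusted p = 0.0065), the largest change among the 44 members. Its adjusted p was 0.0348 or less when any array was left out.

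PSBO2 (AT3G50820), the second gene for the same protein, had levels of 11.50, 11.56 and 11.61 after heat and 11.62, 11.72 and 11.31 in controls. The heat values lay inside the control range, and the change of 0.01 (95% interval -0.27 to 0.30) was -0.12 under quantile normalization and -0.49 under scaling to the Bacillus controls. PSBP1 (AT1G06680), an extrinsic protein needed for normal water oxidation, had 12.81, 12.96 and 12.89 after heat and 13.17, 13.12 and 13.06 in controls. Its groups did not overlap, but its change of -0.23 did not pass (adjusted p = 0.103). The changes of PSBQ1 (AT4G21280) and PSBQ2 (AT4G05180), the 2 genes for the third extrinsic protein, were -0.13 and -0.09, and neither passed.

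Of the 7 intrinsic and small subunits and assembly factors of photosystem II, 2 fell. PSBX (AT2G06520), a small membrane subunit, had 12.42, 12.61 and 12.53 after heat and 12.89, 13.00 and 12.87 in controls. PSBTN (AT3G21055), a small subunit encoded in the nucleus, had 13.00, 13.12 and 12.96 after heat and 13.40, 13.39 and 13.43 in controls. In both genes every heat array was below every control array. PSBX fell by 0.40 ± 0.09 (adjusted p = 0.0215) and PSBTN by 0.38 ± 0.08 (adjusted p = 0.0181), to 75.8% and 77.0% of control. Both calls were lost without control array 2, heat array 1 or heat array 3, with adjusted p up to 0.0808 for PSBX and 0.0727 for PSBTN.

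The other 5 of this role did not pass. PSBR (AT1G79040), a subunit that helps hold the extrinsic proteins, had 13.59, 13.58 and 13.68 after heat and 13.81, 13.81 and 13.85 in controls, a change of -0.21 (adjusted p = 0.105). The groups of PSBR did not overlap, nor did those of PSBW (AT2G30570), a small subunit at the edge of the complex, whose change was -0.25 (adjusted p = 0.0652). PSB27 (AT1G03600), an assembly and repair factor, had a change of -0.30 (adjusted p = 0.0881), and the small subunit PSBY (AT1G67740) had a change of -0.15. PSB28 (AT4G28660), an assembly factor, stood on the other side with a change of 0.24 (95% interval -0.07 to 0.54).

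Photosystem I had the most calls, with 5 of 12 members lower, and all 12 heat means were below the control means (median -0.29). PSAF (AT1G31330), the subunit at which plastocyanin docks, had 13.01, 13.09 and 13.03 after heat and 13.47, 13.39 and 13.42 in controls. PSAE1 (AT4G28750), part of the stromal ridge that binds ferredoxin, had 13.06, 13.16 and 13.04 after heat and 13.39, 13.38 and 13.41 in controls. For both genes every heat array lay below every control array. PSAF fell by 0.38 ± 0.07 to 76.6% of control (adjusted p = 0.0135), and PSAE1 fell by 0.30 ± 0.07 to 81.0% (adjusted p = 0.0334).

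The other 3 that fell encode membrane subunits of photosystem I. PSAK (AT1G30380), which lies beside the antenna, had 13.41, 13.37 and 13.22 after heat and 13.78, 13.71 and 13.70 in controls. PSAL (AT4G12800), at the docking site of mobile antenna, had 12.67, 12.82 and 12.74 after heat and 13.07, 13.06 and 13.07 in controls. PSAO (AT1G08380), at the same docking site, had 13.25, 13.24 and 13.19 after heat and 13.68, 13.55 and 13.56 in controls. None of these groups overlapped. PSAK fell by 0.40 ± 0.08 to 76.0% of control (adjusted p = 0.0196), PSAL by 0.33 ± 0.08 to 79.8% (adjusted p = 0.0275) and PSAO by 0.37 ± 0.08 to 77.3% (adjusted p = 0.018).

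Every one of these 5 calls was lost without heat array 3. The calls of PSAF and PSAO were also lost without heat array 1 and that of PSAK without control array 2, with adjusted p of at most 0.0603, 0.0718 and 0.0699. The calls of PSAE1 and PSAL were lost in every such fit except that without heat array 2, with adjusted p up to 0.115 and 0.103. The 7 other members of photosystem I did not pass. PSAG (AT1G55670), close to the antenna, had a change of -0.24 (adjusted p = 0.0715), and PSAH1 (AT3G16140) and PSAH2 (AT1G52230), for another subunit of the docking site, had changes of -0.29 and -0.22. PSAN (AT5G64040), on the lumenal side, had -0.29. Of the stromal subunits that bind ferredoxin, PSAD1 (AT4G02770) had -0.03, PSAD2 (AT1G03130) -0.19 and PSAE2 (AT2G20260) -0.16.

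**Figure D2:**
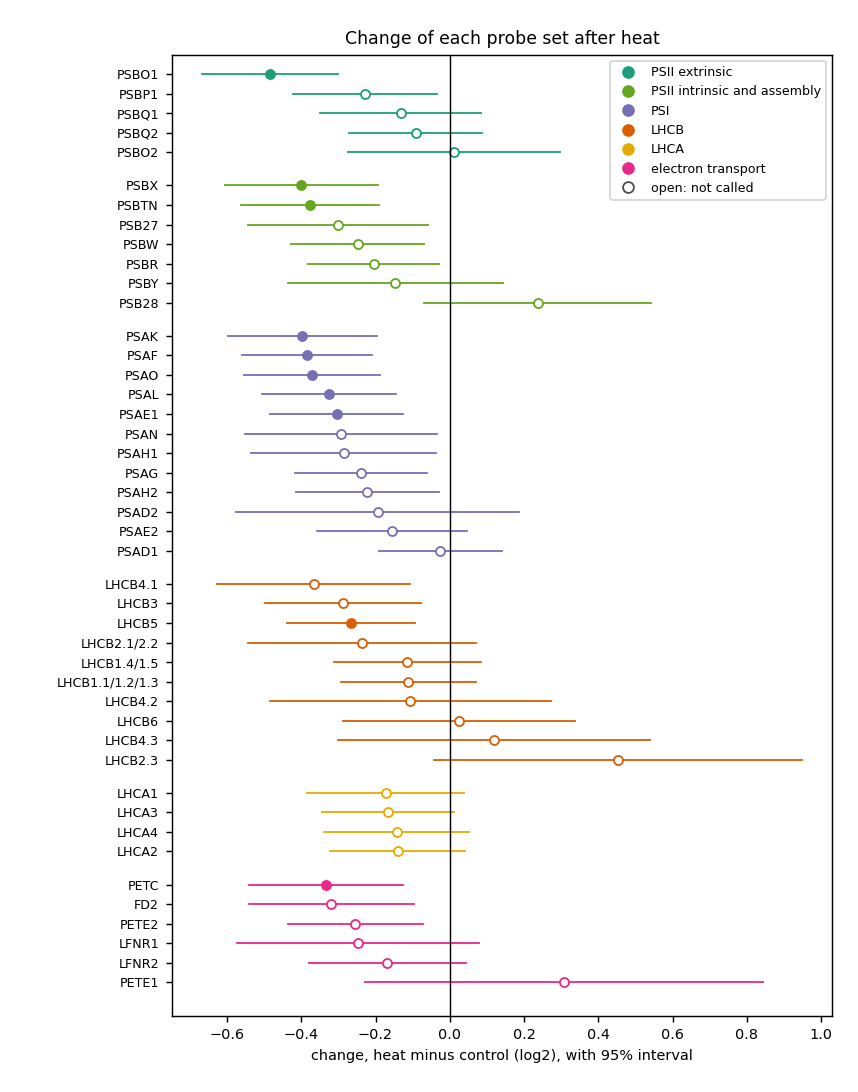
Change of each of the 44 probe sets on the log2 scale, heat minus control, with the 95% limma interval as a bar, in order of role. Filled points are the 10 genes that fell, all between -0.48 and -0.27, and 6 members have points above 0 in the values as deposited.

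Of the 10 probe sets for LHCB antenna proteins, 1 fell. LHCB5 (AT4G10340), the minor antenna protein CP26, had 13.59, 13.63 and 13.55 after heat and 13.90, 13.85 and 13.82 in controls. Its groups did not overlap, and it fell by 0.27 ± 0.07 to 83.2% of control (adjusted p = 0.0465). The call was lost whichever array was left out, with adjusted p up to 0.143.

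The LHCB1 and LHCB2 proteins make up most of the trimeric antenna of photosystem II. Those LHCB1 genes that lie side by side on chromosome 1, LHCB1.1 (AT1G29920), LHCB1.2 (AT1G29910) and LHCB1.3 (AT1G29930), shared 1 probe set. It gave 13.77, 13.83 and 13.81 after heat and 13.84, 13.94 and 13.97 in controls, a change of -0.11 ± 0.08 with all heat arrays below the controls and no call (adjusted p = 0.366). The probe set of LHCB1.4 (AT2G34430) and LHCB1.5 (AT2G34420), neighbours on chromosome 2, also had -0.11, and that of the neighbours LHCB2.1 (AT2G05100) and LHCB2.2 (AT2G05070) on the same chromosome had -0.24. A shared probe set cannot show whether its genes changed alike.

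LHCB2.3 (AT3G27690), another gene for the LHCB2 protein, had 10.72, 11.03 and 10.65 after heat and 10.53, 10.61 and 9.90 in controls. All heat arrays were above all control arrays, the only such order among the 44, but the control arrays spread by more than the gap. Its change of 0.45 ± 0.21 did not pass (adjusted p = 0.189, 95% interval -0.04 to 0.95). LHCB3 (AT5G54270), the third protein of the trimers, had -0.29 (adjusted p = 0.0669). Among the genes for CP29, LHCB4.1 (AT5G01530) had -0.37 (adjusted p = 0.0612), LHCB4.2 (AT3G08940) had -0.11 and LHCB4.3 (AT2G40100), the member with the lowest level, had 0.12. LHCB6 (AT1G15820), the minor antenna protein CP24, had 0.02 (95% interval -0.29 to 0.34).

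None of the 4 LHCA antenna genes of photosystem I fell or rose, and none had an unadjusted limma p under 0.05. LHCA2 (AT3G61470) had 13.82, 13.89 and 13.80 after heat and 13.93, 14.04 and 13.96 in controls, and LHCA3 (AT1G61520) had 13.71, 13.74 and 13.71 after heat and 13.96, 13.84 and 13.86 in controls. In both genes the heat arrays were all lower, by a mean of 0.14 and 0.17. The changes of all 4, LHCA1 (AT3G54890, -0.17), LHCA2 (-0.14), LHCA3 (-0.17) and LHCA4 (AT3G47470, -0.14), were close to each other. The LHCA2 probe set also names a locus that is not among the members.

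Of the 6 electron transport members, 1 fell. PETC (AT4G03280), the Rieske iron-sulfur protein of the cytochrome b6f complex, had 12.77, 12.82 and 12.85 after heat and 13.26, 13.14 and 13.04 in controls. The groups did not overlap, and the control arrays were spread more widely than the heat arrays. PETC fell by 0.33 ± 0.09 to 79.4% of control (adjusted p = 0.0405), and the call was kept only without control array 3 (adjusted p up to 0.134 in the other 5 fits).

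The remaining carriers did not pass. PETE2 (AT1G20340), the more abundant plastocyanin, had 13.56, 13.43 and 13.49 after heat and 13.72, 13.76 and 13.78 in controls, and its change was -0.25 (adjusted p = 0.0625). FD2 (AT1G60950), the main leaf ferredoxin, had 12.47, 12.42 and 12.51 after heat and 12.73, 12.94 and 12.69 in controls, and its change of -0.32 had the lowest adjusted p outside the called genes (0.0577). Both genes had non-overlapping groups. The reductase genes LFNR1 (AT5G66190) and LFNR2 (AT1G20020) had -0.25 and -0.17. PETE1 (AT1G76100), the second plastocyanin gene, had 0.31 (95% interval -0.23 to 0.84), with control arrays from 9.64 to 10.48.

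The 34 members without a call had adjusted p from 0.0577 upwards. For 22 of the 34 the 95% interval lay within 0.5 log2 units of 0, and the widest bounds reached -0.63 for LHCB4.1 and 0.95 for LHCB2.3. These intervals do not show that the genes were unaffected.

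The members were not spread evenly over the array scale. A probe set's level also depends on its probes, so the level is used here only to place a probe set on that scale, whose highest value was 14.2. Of the 44 members, 33 had a mean level of at least 12 and 20 of at least 13. All 10 calls were among the 33, whose median change was -0.25. The 62 other probe sets with a mean of at least 12 had a median change of -0.26. Of these 62, 29.0% fell and 9.68% rose, beside 30.3% and none of the members in that range. All heat arrays were below all control arrays for 78.8% of these members and for 66.1% of the other 62. At levels of at least 13, 35.0% of the 20 members and 18.2% of 11 other probe sets fell, with medians of -0.25 and -0.24. Of the 62, 5 belong to the lists of other light-reaction or marker genes described here. The rest were not sorted by function, and any probe sets of plastid-encoded genes were not taken out. They may thus include further photosynthesis genes. Both limits were chosen after the values were seen, and no test was made.

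The 11 members with a mean level under 12 had a median change of -0.13, with 6 below and 5 above 0 and no call. Over the 44 members, the change was lower where the level was higher (Pearson r = -0.62, Spearman rho = -0.36), and over all 22746 probe sets it was not (0.02 and -0.07). These are descriptions over probe sets, which share the same 6 arrays. The part of the signal level in the changes was not tested.

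**Figure D3:**
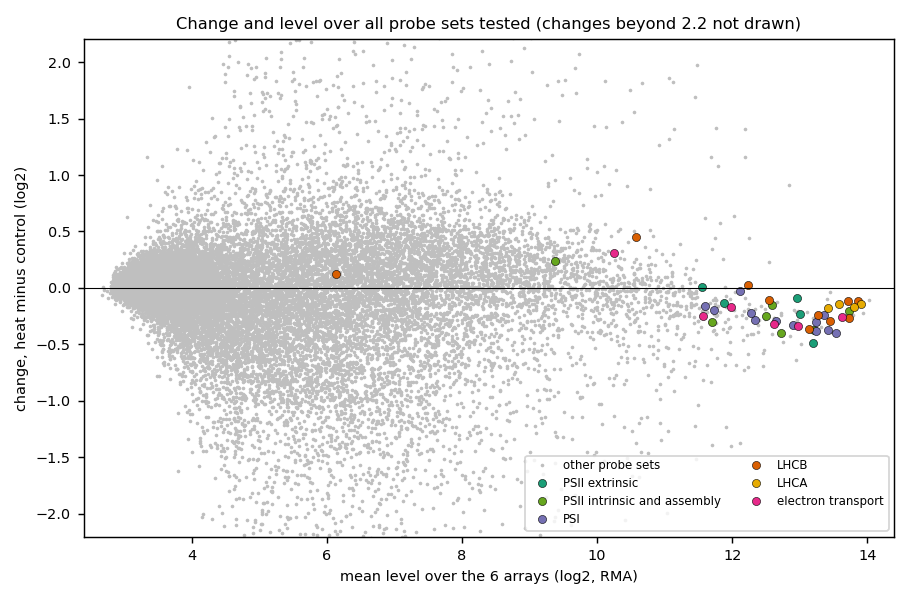
Mean log2 level over the 6 arrays against the change, heat minus control (log2). Members are coloured by role and other probe sets are grey, without those whose change lies beyond the vertical axis. Most members lie at the right, at levels of at least 12, where the other probe sets are few and also lie mostly below 0.

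Within the groups the arrays differed in a shared way. Among the control arrays, array 1 was the highest for 27 of the 44 members and array 3 the lowest for 27. Among the heat arrays, array 2 was the highest for 31 members and array 1 the lowest for 20. The numbers of members below the control mean were 40, 38 and 38 on heat arrays 1, 2 and 3. On control arrays 1, 2 and 3 they were 12, 25 and 34. The median deviation from the control mean was -0.25, -0.16 and -0.22 on the heat arrays and 0.05, -0.01 and -0.06 on the control arrays. The direction was thus shared by all 3 heat arrays, but the count on control array 3 came near theirs.

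Several subunits are encoded by more than 1 gene, and 10 such pairs had separate probe sets. The difference between the genes of a pair was compared between heat and control arrays by an exact permutation test. With 3 arrays against 3, it cannot give a p below 0.1, adjusted or not. In 5 of the 10 pairs the heat and control arrays did not overlap (exact p = 0.1, adjusted p = 0.2 each). Both pairs with LHCB4.1, which share that gene, are among them. For single probe sets over the whole array, all heat arrays lay below all control arrays for 20.0% and above them for 18.8%. No such share was computed for differences between genes.

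The log2 difference PSBO1 minus PSBO2 was 1.31 to 1.48 after heat and 1.75 to 2.11 in controls, a difference of changes of -0.50. Only its shift between the groups can be read, since levels of different probe sets are not on 1 scale. For LHCB2.1/LHCB2.2 minus LHCB2.3, the 3 heat arrays gave 2.38, 2.22 and 2.44 and the 3 control arrays 3.02, 2.86 and 3.23, a difference of changes of -0.69. LHCB4.1 differed in its change from LHCB4.2 by -0.26 and from LHCB4.3 by -0.49, and PSAE1 from PSAE2 by -0.15.

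In the other 5 pairs the arrays overlapped. The difference of changes was 0.56 for PETE1 minus PETE2 (exact p = 0.2, adjusted p = 0.333), with 1 of the 3 heat arrays inside the control range. It was 0.17 for PSAD1 minus PSAD2 (exact p = 0.4), -0.04 for PSBQ1 minus PSBQ2 (exact p = 0.6), -0.06 for PSAH1 minus PSAH2 (exact p = 0.3) and -0.08 for LFNR1 minus LFNR2 (exact p = 0.5).

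**Figure D4:**
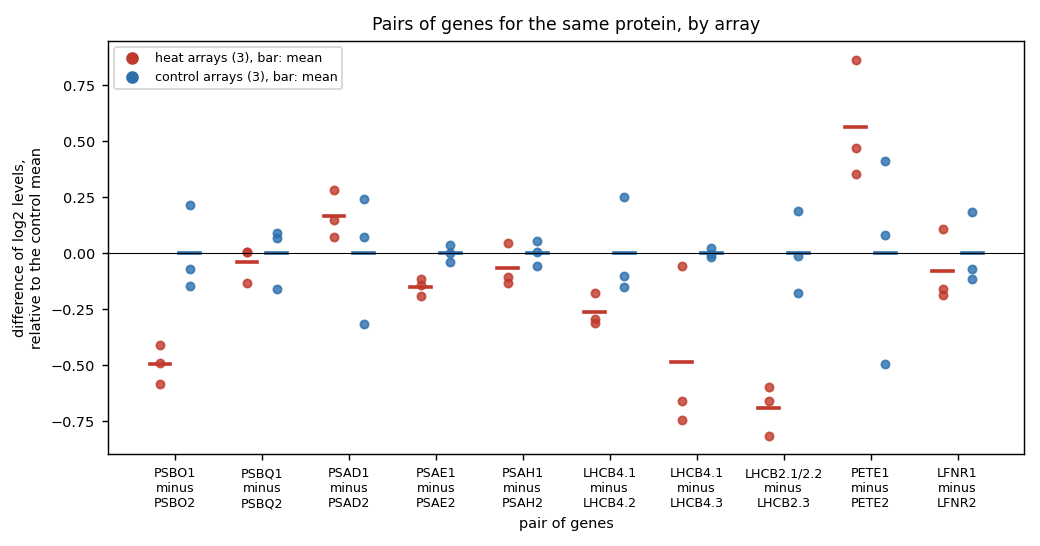
Difference in log2 level between the genes of each pair on each array, heat beside control, after taking off the mean of the control arrays. The heat points lie wholly on one side of the control points in 5 pairs, with the largest shift for LHCB2.1/LHCB2.2 minus LHCB2.3.

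Other genes of the light reactions were read from lists of known function, 74 of 75 of them with a probe set. Among 12 regulators of photosynthesis genes, 1 fell and none rose (median -0.08, with no other unadjusted p under 0.05). This share of 8.33% stands beside 11.5% lower and 7.82% higher over all probe sets. GUN1, a plastid protein of signalling to the nucleus, had 8.72, 8.83 and 8.68 after heat and 10.08, 10.19 and 9.93 in controls. It fell by 1.32 ± 0.10 to 40.1% of control (adjusted p = 0.000234), kept in all 6 fits without an array. With labelled age as a covariate its change was -1.18 (adjusted p = 0.0568). GLK1 and GLK2, transcription factors that activate antenna genes, had changes of 0.52 (adjusted p = 0.231) and 0.08 (adjusted p = 0.852). SIG5, a sigma factor of plastid transcription that responds to light and stress, had 0.71 (adjusted p = 0.331).

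Among 13 photoprotection genes none was called, and 4 had an unadjusted limma p under 0.05 (median -0.17). PSBS, which triggers the release of excess light energy as heat, had 11.79, 11.83 and 11.75 after heat and 12.05, 12.35 and 12.02 in controls. Its groups did not overlap, and its change of -0.35 did not pass (adjusted p = 0.0718). STN7, the kinase that phosphorylates the LHCB trimers, had a change of 0.00 (adjusted p = 0.983). Among 12 measured nuclear genes of the NDH complex, which carries electrons around photosystem I, none was called and 1 had an unadjusted p under 0.05 (median 0.06).

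Of 23 assembly and repair genes, 2 rose and 1 fell (median 0.04). In either direction 13.0% were called, beside 19.3% of all probe sets. LPA19, a photosystem II assembly factor, rose by 0.68 ± 0.16 (adjusted p = 0.0286), and DEG8, a lumenal protease of photosystem II repair, rose by 0.45 ± 0.12 (adjusted p = 0.0416). The call of LPA19 was lost without control array 2, heat array 1 or heat array 3, and that of DEG8 in every such fit except that without control array 2, with adjusted p up to 0.106 and 0.133. Scaled to the Bacillus controls, LPA19 had 0.17 (adjusted p = 0.475) and DEG8 -0.06 (adjusted p = 0.825). THF1, a protein of thylakoid formation, had 10.63, 10.36 and 10.54 after heat and 10.96, 11.05 and 11.07 in controls, and fell by 0.52 ± 0.10 (adjusted p = 0.0126), a call kept in all 6 fits.

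Of 14 other genes of the chain, 1 rose and 4 fell (median 0.03). In either direction 35.7% were called, beside 19.3% of all probe sets. FD1, the minor leaf ferredoxin, had 12.37, 12.56 and 12.50 after heat and 11.10, 11.22 and 10.86 in controls. It was the only one of these 74 genes that rose by more than 2-fold, at 2.67 times control (log2 change 1.42 ± 0.12, adjusted p = 0.000371). Under scaling to the Bacillus controls its change was 0.91 (adjusted p = 0.00112). With labelled age as a covariate its change was not smaller than 1.42, but the call was lost (adjusted p = 0.0517). The change of FD2, the main leaf ferredoxin, was -0.32, and did not pass.

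The 4 that fell were ATPG and ATPC1, both subunits of the chloroplast ATP synthase, PETM, a small subunit of the cytochrome b6f complex, and FDC1, a ferredoxin-like protein. ATPG fell by 0.54 (adjusted p = 0.00941), PETM by 0.50 (adjusted p = 0.0227), ATPC1 by 0.41 (adjusted p = 0.035) and FDC1 by 0.36 (adjusted p = 0.0427). FDC1 was named after its value was seen. The ATPG call held in all 6 fits without an array. PETM lost its call without control array 1, control array 2 or heat array 1 (adjusted p up to 0.0613), and ATPC1 and FDC1 in every such fit except that without control array 3 (up to 0.119 and 0.139).

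**Figure D5:**
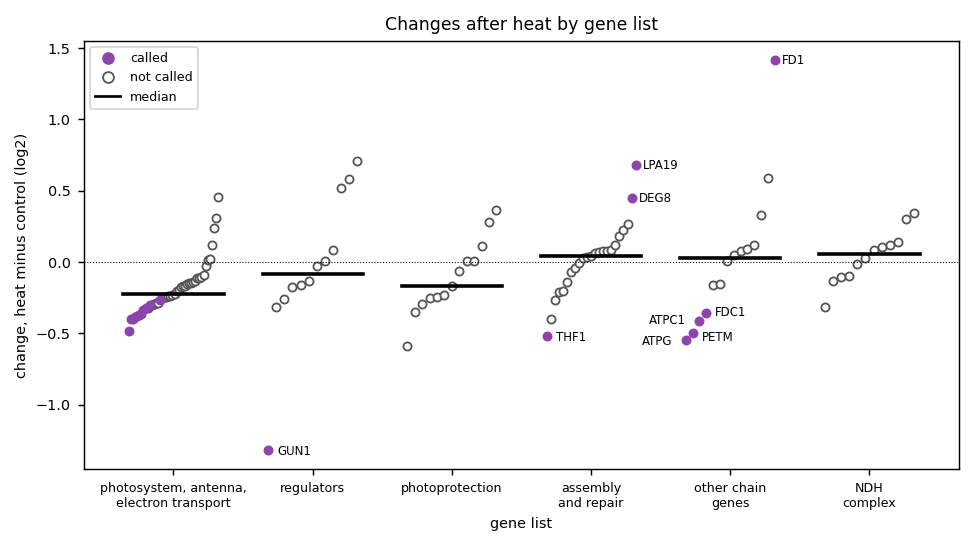
Change of each gene, heat minus control (log2), for the 44 member probe sets and the 5 lists of other light-reaction genes; filled points passed the limma test and bars are medians. The member points lie mostly below 0 within a narrow range, while FD1 at 1.42 and GUN1 at -1.32 stand farthest from 0.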

How the data were processed

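Biotin-labelled RNA was read on 6 Affymetrix arrays, 3 heat and 3 control, grouped by the labels. The submitters' processing notes name RMA, which subtracts background, normalizes between arrays and gives log2 levels per probe set, in a version not given in the sources used here. Deposited log2 levels were used unchanged. The authors' annotated table repeats them, equal in all 136860 cells, and holds a linear ratio per numbered pair of arrays, whose log2 matched the level difference to 0.000101. No depth applies to arrays, and the number of arrays limits the precision.

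Genes were matched through the Entrez Gene column and the RefSeq table of assembly TAIR10.1, used for names and neighbours only. After 64 control probe sets were left out, 22746 were tested with limma 3.58.1 in R 4.3.3 (group as the only factor, 2-sided, Benjamini-Hochberg adjustment, 4 residual and 2.65 prior degrees of freedom), tested on simulated data. Members and lists were chosen with earlier results of these data known. All members were named, with array values for called members and the 2 of highest mean level per role (those of PSBO2, LHCB2.3 and FD2 were added after their values were seen), plus up to 4 called genes with the largest changes per other list, and GLK1, GLK2, SIG5, PSBS and STN7. Alternatives were 3 scalings, filters, variance settings, a replicate block, labelled age, probe set rules and leaving out each array. Plastid-encoded genes were not analysed here.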

Additional observations from a re-analysis of the deposited data

How the results depend on the processing

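No member rose and none changed 2-fold in any setting tried. The count of members that fell, 10, was 21 under quantile normalization, 6 under median centring (which moves the median of all probe sets to 0.12), 38 under scaling to the Bacillus controls, 17 with a variance trend and 0 with labelled age (1 with an unadjusted limma p under 0.05). It was 1 to 8 when 1 array was left out. Beside these counts, the share of all probe sets that fell was 11.5% as deposited, 10.4% under quantile normalization and 9.35% under median centring. That share was 42.5% under Bacillus scaling, 11.3% with a variance trend, 0.998% with labelled age and 6.48% to 12.3% without 1 array. With a replicate block, 5 members fell, beside 9.96% of all probe sets. The labels do not say what the replicate numbers pair. Same-numbered arrays correlated at 0.04, 0.19 and -0.08 in their deviations from the group mean, and the other combinations at -0.15 to 0.16. With 3 arrays per group, these values cannot show whether the arrays were paired. The median change was -0.30, -0.12, -0.73 and -0.15 under quantile normalization, median centring, Bacillus scaling and labelled age. Changes of some members, none of them called, took the other sign, and the cause was not tested. Under Bacillus scaling these were PSBO2 (-0.49), PSB28 (-0.27), LHCB2.3 (-0.05), LHCB4.3 (-0.38), LHCB6 (-0.48) and PETE1 (-0.20). Under quantile normalization they were PSBO2 (-0.12) and LHCB6 (-0.19), with array weights PSBO2 (-0.03), and under median centring PSBQ2 (0.01) and PSAD1 (0.08). With labelled age they were PSBQ1 (0.07), PSBY (0.01), PSAD1 (0.02), PSAD2 (0.17), LHCB2.1/LHCB2.2 (0.08), LHCB4.2 (0.37) and LFNR1 (0.05). When 1 array was left out, PSBO2 ranged from -0.11 to 0.10, LHCB6 from -0.09 to 0.15, LHCB4.3 from -0.02 to 0.30 and LHCB4.2 from -0.26 to 0.04. Under Bacillus scaling 6 regulators, 8 photoprotection, 8 assembly and 4 NDH genes fell and 0 assembly genes rose, and under median centring 2 other chain genes fell and 1 NDH gene rose. Among pairs, PSAE1 minus PSAE2 was 0.00 under quantile normalization, and without an array LFNR1 minus LFNR2 ranged from -0.17 to 0.01 and PSBQ1 minus PSBQ2 reached 0.01.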
